A study of Mus musculus with 16 samples.

Results

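The effect of panobinostat on mouse genes was measured in 16 whole tumours, 8 from mice given panobinostat and 8 from mice that were not. In each arm, 4 mice had also received trastuzumab and 4 had not, and the comparison was adjusted for trastuzumab as a second factor. The members were all 23354 gene symbols with a value in all 16 libraries, of 24681 in the table, and 15610 of them passed a filter on low counts and were tested. Panobinostat blocks the zinc-dependent histone deacetylases. These enzymes take acetyl groups off histones and other proteins, often as part of repressor complexes, so their inhibitors raise histone acetylation and shift the transcription of many genes. Repressor complexes that hold deacetylases are also known to keep neuronal genes silent in other cell types. Deacetylases act in interferon signalling too, where a complex of transcription factors binds a DNA element called the interferon-stimulated response element (ISRE).

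The tumours were grown from AU565(pv), a human HER2+ breast cancer cell line, implanted in a mammary fat pad of SCID mice, whose mature T and B lymphocytes are missing. Injections were intraperitoneal and began when tumours measured 20 to 25 mm2. Vehicle mice received D5W (dextrose solution) on days 0 and 1 and PBS on day 0. Trastuzumab mice received 10 mg/kg of the HER2 antibody and D5W, panobinostat mice received 15 mg/kg on days 0 and 1 and PBS, and combination mice received both drugs. The day of trastuzumab is given as day 0 in one label and as day 1 in another. Each group held 4 mice with 1 library per mouse, and tumours were taken on day 2. The series covers 1 cell line and 1 harvest day. Reads were counted on mouse genes, and the tumour cells are human, so the values are read here as those of host cells. Human reads that align to a similar mouse gene could add to a count, and their share was not measured. In whole tumours, fewer cells of a type and less RNA per cell cannot be told apart.

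Total counts were 5072404 to 8140782 in the 8 panobinostat libraries and 4848244 to 7345222 in the other 8, and did not differ beyond their spread (exact two-sided permutation test, p = 0.782). One library stood apart. The vehicle mouse 21 library held 829 counts of Krt1, 447 of Lor and 954 of Krt10, genes of the outer skin, whereas no other library held more than 2, 2 and 38. The number of genes called without that library is given below. Counts for single lists also differ without it, and these are given only for some lists. Combination mice 11 and 22 held the highest summed levels of interferon response genes, and counts are also given without these 2 libraries. Levels below are CPM, counts scaled to a common library size with TMM, and 3 levels in a row are the lowest, the median and the highest of 8 libraries. A change is the log2 value with panobinostat minus that without it, with its standard error (SE). Adjusted p-values are Benjamini-Hochberg values of edgeR's quasi-likelihood F test over all 15610 genes, and a gene was called at an adjusted p under 0.05.

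Panobinostat changed 503 of 15610 genes (3.22%). Of these, 342 were higher (2.19%) and 161 were lower (1.03%). Vgf rose most, and the genes that rose included 32 of 38 type I interferon response genes. Globin genes and some neutrophil markers were among the largest decreases, though 5 of 11 neutrophil markers had a positive change. The median increase among called genes was 0.75 and the median decrease was -0.53, against a median of 0.00 over all genes tested. A change of at least 1 log2 unit was found for 95 higher and 26 lower genes. In 87 of all 15610 genes (0.557%), all 8 panobinostat libraries lay above all 8 others, and 86 of those 87 were called. In 38 genes (0.243%) all 8 lay below, and 36 of those were called. When genes were split by mean level into 3 groups of equal size, the lowest held 124 higher and 36 lower genes, the middle 109 and 46, and the highest 109 and 79. Without vehicle mouse 21 the count was 439, and without combination mice 11 and 22 it was 437. Of the 503 called genes, 300 kept their call without each library in turn.

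**Figure D1:**
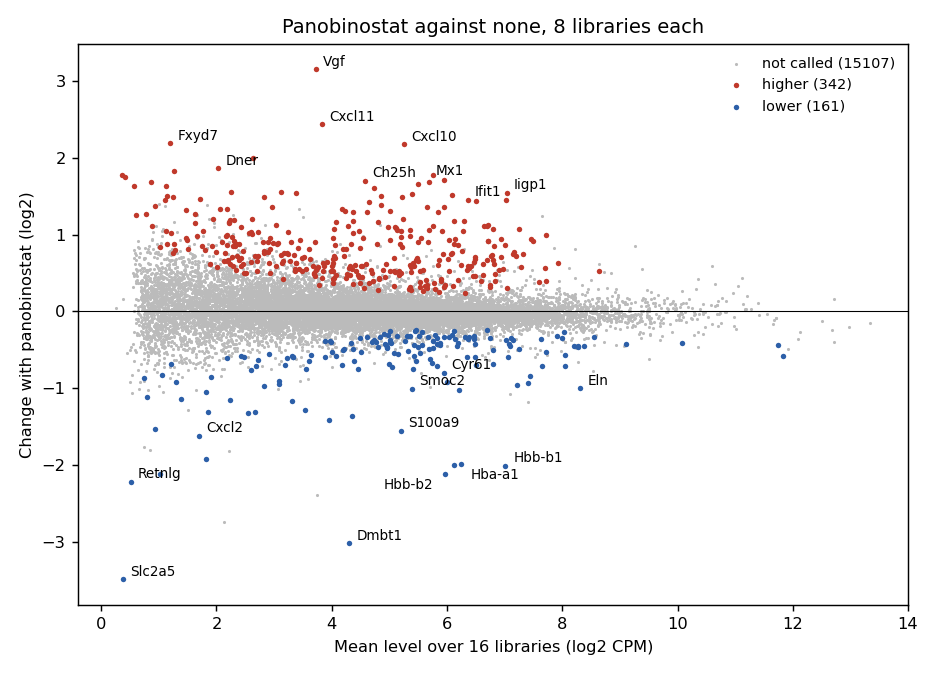
The change with panobinostat (y axis, log2, 8 libraries against 8) is plotted against the mean level (x axis, log2 CPM over 16 libraries) for 15610 genes. Red points are the 342 genes called higher and blue points the 161 called lower. Vgf lies highest at 3.15, and globin genes lie near -2.

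The transcripts of panobinostat's own targets were not called, with Hdac9 near the threshold. None of the 11 zinc-dependent deacetylase genes passed the test, and their changes ran from -0.13 for Hdac2 to 0.45 for Hdac11, with a median of 0.02. Hdac1, a class I enzyme, read 75.3, 110.0 and 116 CPM without panobinostat and 85.6, 105 and 128 CPM with it, a change of 0.02 (SE 0.10, adjusted p = 0.968). Hdac9, a class IIa enzyme, read 6.30, 8.26 and 11.9 CPM without and 9.30, 11.4 and 12.2 CPM with the drug, a change of 0.42 (SE 0.12, adjusted p = 0.0597). The arms overlapped for both genes. Hdac9 passed without vehicle mouse 6 (change 0.51, adjusted p = 0.012), and with total-count scaling, DESeq2, 1 mean per group, or the luminal or adipocyte level as a covariate (adjusted p = 0.0335 to 0.0449). No gene was called among the 7 sirtuins, which are deacetylases of another class, the 14 acetylation writers and readers or the 21 corepressor subunits. Cdkn1a, the cell cycle inhibitor p21 that deacetylase inhibitors commonly induce in cultured cells, had a change of 0.19 (SE 0.10, adjusted p = 0.414). H1f0, a linker histone gene used as a marker of such inhibitors, had a change of -0.18 (SE 0.08, adjusted p = 0.331).

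The largest increase was that of Vgf, which encodes a secreted precursor of neuropeptides stored in dense-core granules. Vgf read 1.11, 2.86 and 3.81 CPM without panobinostat and 14.6, 22.2 and 35.7 CPM with it. The lowest library with panobinostat thus lay far above the highest without. The change was 3.15 (SE 0.25, adjusted p = 3.56e-06), an 8.89-fold difference. Vgf lies on chromosome 5 at 137026392 to 137033351, plus strand, of GRCm38 (mm10), and no exon of another annotated gene overlaps it. By group, Vgf averaged 2.68 ± 1.08 CPM with vehicle, 2.53 ± 0.997 with trastuzumab, 21.6 ± 5.4 with panobinostat and 24.7 ± 10.4 with the combination (SD, n = 4 each).

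Other genes of secretory granules and neurons rose with it from low levels. Ptprn, a membrane protein of dense-core granules, read 1.77, 3.28 and 6.78 CPM without and 5.82, 7.22 and 13.5 CPM with panobinostat, a change of 1.21 (SE 0.22, adjusted p = 0.0042). Fxyd7, which encodes a regulator of the sodium pump found mainly in brain, read 0.461, 0.696 and 1.04 CPM without and 1.45, 2.96 and 5.32 CPM with panobinostat (change 2.19, SE 0.27, adjusted p = 0.000344). The arms did not overlap for Fxyd7, and the highest Ptprn library without panobinostat, at 6.78 CPM, passed the lowest with it. Dner, a neuronal Notch-binding receptor, rose by 1.86 (SE 0.26, adjusted p = 0.00066), and all 8 libraries with panobinostat lay above the others. Tmem59l, a membrane protein gene expressed mainly in brain, rose by 1.83 (SE 0.24, adjusted p = 0.000355), again with no overlap. Fxyd7, Dner and Tmem59l passed the filter on low counts only through their panobinostat libraries. Genes this low without the drug could enter the test only if they were higher with it, so their lack of overlap is no separate support.

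The dense-core granule list had 2 of 7 tested genes called higher and a median of 0.37. Among 32 tested synaptic and neuronal genes, 9 were higher and none was lower, with a median of 0.43. The share called higher over all genes tested was 2.19%. Nrxn2, a presynaptic adhesion protein, changed by 1.17 (SE 0.20, adjusted p = 0.00304). Snap25, a fusion protein of synaptic vesicles, changed by 1.33 (SE 0.27, adjusted p = 0.00858), and Unc13a, a vesicle-priming protein, by 0.74 (SE 0.14, adjusted p = 0.00691). All were low, and the medians of Snap25 were 1.24 CPM without and 3.40 CPM with panobinostat. Snap25 also passed the filter on low counts only through panobinostat libraries. Syp, Syn1, Stmn2 and Kif5c, further neuronal genes of the list, rose by 0.81 to 0.97. The list gave 7 to 11 calls without each library in turn, and 14 with the summed adipocyte level as a covariate. With the summed luminal epithelial level as a covariate it gave 8, with a median of 0.42. Of 10 markers of Schwann cells, the glia of peripheral nerves, none was called. Their median was 0.04, and their summed level ran from 135 to 326 CPM without and from 149 to 272 CPM with panobinostat. The summed synaptic and neuronal level was 739 CPM in vehicle mouse 6, 772 CPM in combination mouse 22 and 1210 CPM in combination mouse 16. Erbb2, the mouse HER2 gene, read 86.8, 82.1 and 226 CPM in those libraries. Human reads on Vgf and the other granule and neuronal genes were not measured, and the part of tumour content was not tested.

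**Figure D2:**
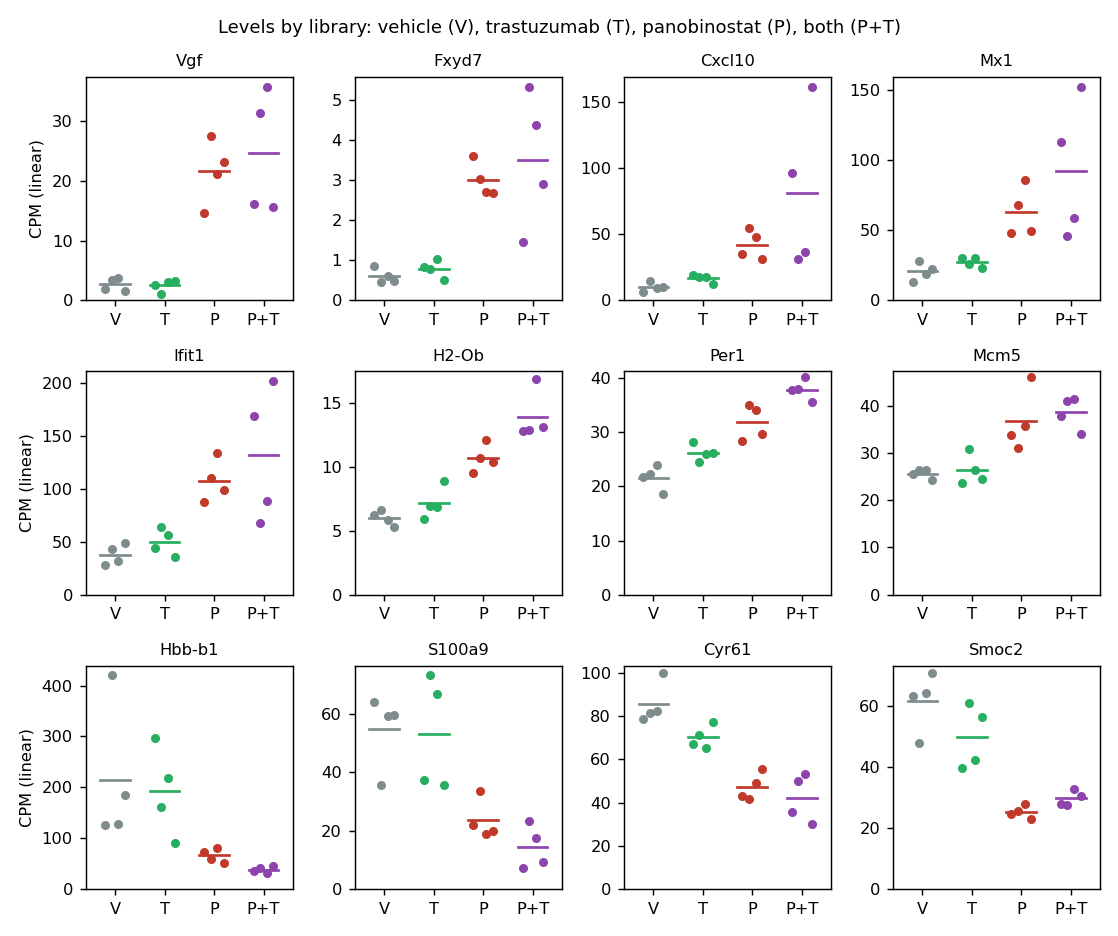
CPM (linear y axis from 0) of 12 genes in each library is shown for vehicle (V), trastuzumab (T), panobinostat (P) and combination (P+T). Points are libraries and bars are group means. Vgf, Fxyd7, Cxcl10, Mx1, Ifit1, H2-Ob, Per1 and Mcm5 are higher in both panobinostat groups, and Hbb-b1, S100a9, Cyr61 and Smoc2 are lower.

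The list with the most calls of the 67 examined was the type I interferon response. Of 38 type I interferon response genes tested, 32 were called higher and none lower, all 38 had a positive change, and the median was 0.93. In 17 of the 38, all 8 panobinostat libraries lay above all 8 others. Over all genes tested, 2.19% were called higher, and in 0.557% all 8 panobinostat libraries lay above. Mx1, a GTPase that blocks the replication of RNA viruses, read 12.8, 24.5 and 30.3 CPM without panobinostat and 45.6, 63.1 and 152 CPM with it, a change of 1.68 (SE 0.22, adjusted p = 0.000448). Ifit1, which binds viral RNA that lacks the host's cap mark, read 28.1, 43.3 and 63.5 CPM without and 68.0, 104 and 202 CPM with panobinostat, a change of 1.46 (SE 0.20, adjusted p = 0.00057). The arms did not overlap for either gene. Adar, an enzyme that edits double-stranded RNA, had a smaller change of 0.56 but a small spread (SE 0.07, adjusted p = 0.000347), and its arms were 56.3 to 78.1 and 81.7 to 122 CPM. Rsad2, the antiviral enzyme viperin, rose by 1.52 (SE 0.22, adjusted p = 0.000845).

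Stat2, a signal transducer of the type I receptor, rose by 0.92 (adjusted p = 0.00238). The interferon receptor genes and their kinases did not pass the test. Of 11 tested ligands, receptors and kinases none was called, their median was 0.05, and Ifnar1 changed by 0.03, Ifngr1 by -0.02 and Jak1 by -0.09. Ifng, the gene of interferon gamma itself, was below the filter, with 6 counts over the 8 libraries without panobinostat and 26 counts over the 8 with it.

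Genes induced mainly by interferon gamma rose as well. Among 25 tested, 18 were called higher and none lower, with a median of 1.18, and 11 did not overlap between the arms. All 11 were higher with panobinostat. The shares over all genes tested were 2.19% called higher and 0.557% with all 8 panobinostat libraries above the others. Cxcl10, a chemokine that draws in cells with the receptor CXCR3, read 6.24, 13.5 and 19.5 CPM without panobinostat and 31.2, 42.3 and 161 CPM with it. All 8 panobinostat libraries lay above the others, and combination mice 22 and 11 were the highest at 161 and 96.6 CPM. The change was 2.18 (SE 0.29, adjusted p = 0.00047), and 1.63 without those 2 libraries. Cxcl11, a second ligand of CXCR3, changed by 2.44 (SE 0.37, adjusted p = 0.00126), and by 1.67 without combination mice 11 and 22. Cxcl9, another CXCR3 ligand, changed by 1.71 (SE 0.32, adjusted p = 0.00501), and the arms overlapped, at 10.4 to 53 and 46.6 to 227 CPM. The Cxcl11 locus is annotated as a polymorphic pseudogene in the reference strain, and Cxcl10 shares exon sequence with Art3 on the opposite strand, which these libraries cannot tell apart.

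GTPases that attack intracellular pathogens made up most of the other called genes of this list. Gbp9, a guanylate-binding protein, read 15.0, 19.1 and 24.6 CPM without and 31.8, 37.3 and 66.3 CPM with panobinostat, a change of 1.10 (SE 0.15, adjusted p = 0.000448). Iigp1, an immunity-related GTPase, rose by 1.54 (SE 0.25, adjusted p = 0.00176). The arms did not overlap for either. Tgtp2 and Tgtp1, near-identical neighbours on chromosome 11, rose by 1.77 and 1.66, and reads could be shared between them, as among the guanylate-binding proteins. Ch25h, which makes the antiviral oxysterol 25-hydroxycholesterol and is also induced by interferon, rose by 1.70 (SE 0.19, adjusted p = 0.000327). Pydc4, a pyrin-domain gene, had a change of 1.75 (SE 0.41, adjusted p = 0.0239), and its call was lost without combination mouse 22, panobinostat mouse 7, or trastuzumab mouse 12 or 24, with adjusted p up to 0.0547. Pydc4 reached at most 0.947 CPM without panobinostat and passed the filter on low counts only through libraries with it.

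The summed level of the type I list was 1690 to 3490 CPM without panobinostat and 3050 to 8240 CPM with it, with the highest values in combination mice 22 (8240) and 11 (5730). Without these 2 libraries, 28 of the 38 type I genes and 17 of the 25 interferon gamma genes were called higher, with medians of 0.68 and 0.89. Without any 1 library the calls numbered 29 to 34 and 17 to 20. The summed level of natural killer (NK) and cytotoxic genes was also high in those mice, at 230 CPM in combination 11 and 180 CPM in combination 22, and was 222 CPM in trastuzumab mouse 12, against 47.2 to 131 CPM in the rest. With the summed level of adipocyte genes, which reached 18200 CPM in panobinostat mouse 13, as a covariate, 35 type I genes were called higher. The part of NK genes in the interferon result was not tested.

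Promoters of 3 of these genes were searched for the ISRE core, GAAANNGAA, on both strands in 250 bases before to 50 after the start of transcription. Ifit1 was planned together with Mx1 and Vgf, for which no promoter was listed. Adar was taken as the called type I gene of smallest adjusted p with a listed promoter. The sequences are from RefSeq, build GRCm38.p6, and are printed on the gene's strand with matches to the core in capitals. Ifit1 (chr19:34640639-34640938, plus strand) has 3 matches, which begin 109, 103 and 84 bases before the start, and the first 2 of them overlap. Cxcl10 (chr5:92348840-92349139, minus strand) has 1 match that begins 213 bases before the start, and was added after its values were seen. Adar (chr3:89730468-89730767, plus strand) has 2 in 1 of its 3 listed promoters, in the first 10 bases of the window and after the start, and that promoter was chosen for its matches.
Ifit1: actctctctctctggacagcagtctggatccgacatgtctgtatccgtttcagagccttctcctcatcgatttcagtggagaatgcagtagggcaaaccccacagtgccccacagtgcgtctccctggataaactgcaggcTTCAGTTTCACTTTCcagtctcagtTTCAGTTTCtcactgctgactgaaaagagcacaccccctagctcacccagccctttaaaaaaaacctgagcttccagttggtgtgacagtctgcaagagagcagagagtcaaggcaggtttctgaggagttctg
Cxcl10: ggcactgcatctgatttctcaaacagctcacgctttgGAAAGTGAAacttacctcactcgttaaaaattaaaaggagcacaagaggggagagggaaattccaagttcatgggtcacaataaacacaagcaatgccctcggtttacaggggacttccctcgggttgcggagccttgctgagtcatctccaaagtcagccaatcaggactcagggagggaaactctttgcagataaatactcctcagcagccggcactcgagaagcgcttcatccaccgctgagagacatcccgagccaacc
Adar: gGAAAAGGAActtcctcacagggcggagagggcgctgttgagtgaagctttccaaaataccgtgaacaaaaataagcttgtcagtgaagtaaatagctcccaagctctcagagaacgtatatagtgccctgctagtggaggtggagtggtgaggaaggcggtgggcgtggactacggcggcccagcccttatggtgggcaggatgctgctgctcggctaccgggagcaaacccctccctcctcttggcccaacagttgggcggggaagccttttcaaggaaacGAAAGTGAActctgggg
The core occurs in 8.56% of all 32851 listed promoters, and a match is a description of the letters only. Promoters were found for 10229 of the 15610 genes tested, which is too few to compare the called genes with the rest.

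Most antigen presentation genes did not pass the test, though both lists had a larger share called higher than the 2.19% over all genes tested. In MHC class I presentation, 2 of 21 tested genes were called higher, with a median of 0.21. Nlrc5, the transactivator of class I genes, rose by 0.97 (SE 0.17, adjusted p = 0.00297), and Tap1, a subunit of the peptide transporter, by 0.78 (SE 0.15, adjusted p = 0.00763). The class I heavy chain genes H2-K1 and H2-D1 had changes of -0.01 and -0.03 and the light chain B2m one of 0.10, and none of these passed. Tap1 exons overlap those of Psmb9 on the opposite strand. Of 12 MHC class II genes, 2 were higher and 1 lower. H2-Ob, a chain of the peptide-loading regulator H2-O, read 5.30, 6.43 and 8.86 CPM without and 9.49, 12.5 and 16.9 CPM with panobinostat, a change of 0.90 (SE 0.11, adjusted p = 0.000344). Ciita, the class II transactivator, rose by 0.68 (SE 0.12, adjusted p = 0.00393), with overlap between the arms. The class II gene called lower, Ctss, a protease that trims the invariant chain, lost its call in 12 of the 16 fits that left out 1 library, with adjusted p up to 0.114.

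Receptors that bind antibody were split. Fcgr1, the high-affinity receptor for immunoglobulin G, read 89.9, 105 and 137 CPM without and 138, 172 and 267 CPM with panobinostat, a change of 0.72 (SE 0.10, adjusted p = 0.000537). Fcgr4, an activating receptor on monocytes and macrophages, rose by 0.92 (SE 0.14, adjusted p = 0.0014). Fcgr2b, the inhibitory receptor, had 0.30 and Fcgr3 0.21, and neither passed. Fcgr1 did not overlap between the arms, and Fcgr4 overlapped narrowly, with 93.3 CPM as the highest without and 92.6 CPM as the lowest with the drug. Altogether 2 of 7 tested Fc receptor and adaptor genes were higher, against 2.19% of all genes tested.

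Most chemokines outside the CXCR3 group had a positive change, 13 of 14 CC chemokines and 8 of 10 CXC and other chemokines. Only 1 was called lower. Ccl12, a monocyte-attracting chemokine of the mouse, read 34.7, 50.4 and 56.7 CPM without and 68.3, 84.0 and 166 CPM with panobinostat, a change of 0.95 (SE 0.15, adjusted p = 0.00156) with no overlap. Ccl17, a ligand of CCR4, rose by 1.55 (SE 0.32, adjusted p = 0.00886), with overlap. These were the 2 called of 14 CC chemokines, against 2.19% called higher over all genes tested. Cxcl2, which attracts neutrophils through CXCR2, fell from 2.73, 3.77 and 7.26 CPM to 0.505, 1.43 and 2.47 CPM, a change of -1.62 (SE 0.28, adjusted p = 0.00269), again with no overlap. Cxcl2 passed the filter on low counts only through libraries without panobinostat, so its lack of overlap is no separate support. Pf4, a chemokine of platelets and some macrophages, rose by 1.16 (SE 0.20, adjusted p = 0.00262). The CXC and other chemokine list had 2 of 10 higher and 1 lower, and among 20 inflammatory cytokine and NF-kB genes none was higher and 2 were lower. Il1a, which encodes interleukin 1 alpha, read 4.37, 5.85 and 9.32 CPM without and 1.24, 3.01 and 3.70 CPM with the drug, a change of -1.16 (SE 0.23, adjusted p = 0.00759). Il1b, the beta form, fell by 0.60 (SE 0.13, adjusted p = 0.0172), and its call was lost when combination mice 11 and 22 were both left out, where its change was -0.55. Il1f9, another member of the interleukin 1 family, changed by -2.12 (SE 0.41, adjusted p = 0.0062) and was at 0 in at least 1 panobinostat library.

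Most markers of immune cell types did not pass the test. The macrophage, monocyte and NK lists are short, and each still had a larger share called higher than the 2.19% over all genes tested. Macrophage markers had 2 of 21 called higher and a median of 0.00, and Csf1r, Cd68, C1qa and Mertk changed by 0.09, -0.18, -0.01 and 0.05. Monocyte markers had 4 of 12 called higher and a median of 0.34, but each of the 4 calls was lost without at least 1 library. Of 19 NK and cytotoxic genes, 2 were higher. That count was 1 without vehicle mouse 21 or 6, trastuzumab mouse 15, 20 or 24, or combination mouse 11 or 22, and 3 without trastuzumab mouse 12 or combination mouse 16. Klrk1, the activating receptor NKG2D, read 6.94, 10.1 and 24.8 CPM without and 17.8, 23.4 and 52.3 CPM with panobinostat, a change of 1.29 (SE 0.23, adjusted p = 0.00354). The NK-defining gene Ncr1 had a change of 0.15, and the granule genes Gzmb, Prf1 and Gzma 1.26, 0.24 and -0.26, none of which passed. None of 6 tested T cell genes and none of 4 B and plasma cell genes was called. Cd3d and Cd3g, parts of the T cell receptor complex, stayed below the filter at 12 and 10 counts over the 8 libraries without and 12 and 11 counts over the 8 with panobinostat.

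Globin genes fell together. Hbb-b1, which encodes a beta-globin chain, read 91.3, 173 and 420 CPM without panobinostat and 30.5, 48.3 and 81.4 CPM with it, a change of -2.02 (SE 0.27, adjusted p = 0.000448). Hbb-b2, Hba-a2 and Hba-a1 changed by -2.12, -2.0 and -1.99, and Alas2, the first enzyme of haem synthesis in red cells, by -1.93 (SE 0.33, adjusted p = 0.00288). In all 5 genes every panobinostat library lay below every other library. Alas2 passed the filter on low counts only through libraries without panobinostat, so for this gene the lack of overlap is no separate support. These were the 5 called of 6 tested erythroid genes, and the sixth, Bpgm, had -0.23. The pairs Hba-a1 with Hba-a2 and Hbb-b1 with Hbb-b2 are near-identical copies whose reads could be shared. By group, Hbb-b1 averaged 214 ± 140.0 CPM with vehicle, 192 ± 87.1 with trastuzumab, 65.8 ± 13.6 with panobinostat and 38.1 ± 6.75 with the combination (SD, n = 4 each). The summed erythroid level ran from 267 CPM in trastuzumab mouse 24 to 1150 CPM in vehicle mouse 29 among libraries without panobinostat, and from 101 to 226 CPM with it. The call of all 5 genes held without each library in turn. Endothelial markers had 2 of 22 higher and 1 lower, with a median of 0.02. The amount of blood in the tumours was not measured, and its part in the globin change was not tested.

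Neutrophil markers did not move as 1 group. Of 11 tested, 5 were lower and 1 was higher, with a median of -0.23. S100a9, which encodes a subunit of calprotectin, read 35.6, 59.6 and 73.4 CPM without and 7.12, 19.3 and 33.6 CPM with panobinostat, a change of -1.56 (SE 0.24, adjusted p = 0.00139). S100a8, its partner subunit, changed by -1.36 (SE 0.20, adjusted p = 0.00102), and Cxcr2, the receptor for Cxcl2, by -0.75 (SE 0.12, adjusted p = 0.00133). S100a9 and Cxcr2 did not overlap between the arms and S100a8 did. Retnlg, a resistin-like protein of mouse neutrophils, was low throughout, at 0.602 to 3.54 CPM without and 0 to 0.76 CPM with the drug (change -2.22, SE 0.38, adjusted p = 0.00262). Csf3r, the receptor that neutrophils need for their growth factor, had -0.23 and Fpr1 0.43, and neither passed. Fpr2, the gene called higher, lost its call in 10 of the 16 fits that left out 1 library. Ly6g, the defining surface marker, had 3 counts over the libraries without and 1 count over those with panobinostat.

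**Figure D3:**
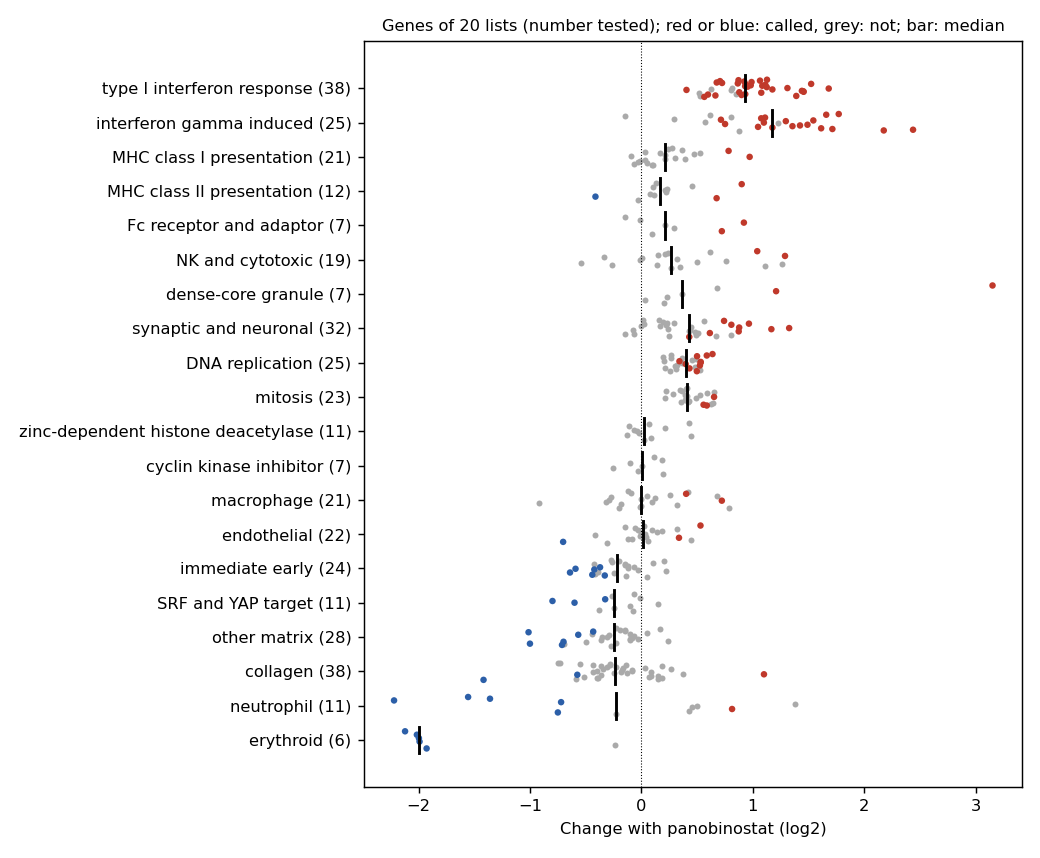
Each point is a tested gene of 1 of 20 gene lists, placed by its change with panobinostat (x axis, log2), and the number tested is beside each list. Red and blue points were called higher and lower, grey points were not called, and black bars are medians. Interferon lists have medians of 0.93 and 1.18, the erythroid list has -1.99, and the deacetylase list sits at 0.02.

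Genes of the matrix and of mechanical and growth factor signalling fell in part. Smoc2, a calcium-binding matrix protein, read 39.6, 58.6 and 70.8 CPM without and 23, 27.6 and 32.8 CPM with panobinostat, a change of -1.01 (SE 0.12, adjusted p = 0.000344). Fmod, a small proteoglycan that binds collagen, changed by -0.70 (SE 0.12, adjusted p = 0.00262), and neither gene overlapped between the arms. Eln, which encodes elastin, changed by -1.0 (SE 0.20, adjusted p = 0.00757), and Sparc, a collagen-binding glycoprotein, by -0.43 (SE 0.09, adjusted p = 0.00847). These were among 6 lower and no higher of 28 tested matrix glycoproteins and crosslinkers, with a median of -0.25. The share called lower over all genes tested was 1.03%. The lower count of this list was 4 to 8 without each library in turn, and 4 without combination mice 11 and 22 together. Of 38 collagens, 2 were lower and 1 higher, with a median of -0.24. Col10a1, a collagen of calcifying cartilage, read 13.6, 19.1 and 38.2 CPM without and 3.76, 7.57 and 14.9 CPM with the drug, a change of -1.42 (SE 0.24, adjusted p = 0.0022). Col20a1 was the collagen called higher, at 1.10 (SE 0.18, adjusted p = 0.00188). The number of collagens called lower was 1 to 5 without each library in turn: it was 1 without vehicle mouse 21 or 3, trastuzumab mouse 24, or panobinostat mouse 13 or 4, 4 without panobinostat mouse 7, and 5 without trastuzumab mouse 12. DESeq2 called 5 lower, and the fit with the adipocyte level as a covariate called 6. Among 16 fibroblast markers 1 was lower, with a median of -0.14.

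Cyr61 and Ctgf, secreted matricellular proteins and well-known targets of the factors SRF and YAP, both fell. Cyr61 read 65.2, 78.1 and 100 CPM without and 30.1, 46.2 and 55.6 CPM with panobinostat, a change of -0.80 (SE 0.11, adjusted p = 0.00047), and Ctgf changed by -0.60 (SE 0.12, adjusted p = 0.00692). Neither overlapped. Lats2, a kinase that restrains YAP and is itself its target, changed by -0.33 (SE 0.07, adjusted p = 0.0113), also without overlap. These were the 3 called of 11 tested genes of that list, whose median was -0.25. Of 23 matrix proteases and inhibitors, 3 were lower and none was higher. The lower count was 2 without vehicle mouse 21 or 3, panobinostat mouse 13 or combination mouse 11, and 5 without combination mouse 22. It was 5 with DESeq2 and 7 with the adipocyte level as a covariate. A single gene was called higher in both of those fits and without vehicle mouse 3 or panobinostat mouse 13. Mmp14, a membrane-bound matrix protease, changed by -0.35 (SE 0.08, adjusted p = 0.0168). Mmp9, a secreted gelatinase called lower, lost its call without combination mouse 11, panobinostat mouse 13 or vehicle mouse 21 or 3, with adjusted p up to 0.0539.

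Immediate early genes, whose transcription starts without new protein synthesis after a stimulus, had 6 of 24 called lower and none higher, with a median of -0.22. Egr1, a zinc finger factor, read 48.6, 54.9 and 59.2 CPM without and 31.6, 39.4 and 50.4 CPM with panobinostat, a change of -0.44 (SE 0.08, adjusted p = 0.00262). Junb, a subunit of AP-1, changed by -0.37 (SE 0.08, adjusted p = 0.0113), and Fos, another, by -0.64 (SE 0.14, adjusted p = 0.0146). Junb did not overlap between the arms, and Egr1 and Fos did. The count of 6 became 3 without vehicle mouse 29, trastuzumab mouse 12, panobinostat mouse 13 or 7, or combination mouse 11.

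Some cell cycle genes rose. All 25 tested DNA replication genes and all 23 mitosis genes had a positive change, with medians of 0.40 and 0.41. Of these, 10 replication and 3 mitosis genes were called, and none was called lower. Mcm5, a subunit of the replicative helicase, read 23.7, 25.9 and 30.9 CPM without and 31.1, 36.7 and 46.1 CPM with panobinostat, a change of 0.53 (SE 0.09, adjusted p = 0.00186) with no overlap. Uhrf1, which keeps DNA methylation in place during replication, changed by 0.64 (SE 0.11, adjusted p = 0.00303), and Aurka, a mitotic kinase, by 0.59 (SE 0.12, adjusted p = 0.0092). The replication count was 6 without panobinostat mouse 8. The mitosis count was 1 without trastuzumab mouse 12 or 24, panobinostat mouse 4 or 8, or combination mouse 16 or 2, and 5 without panobinostat mouse 13 or combination mouse 11. Without combination mice 11 and 22 together, 13 replication and 8 mitosis genes were called higher. With the summed adipocyte level as a covariate these counts were 17 and 15, and DESeq2 called 8 mitosis genes. Mki67, the common proliferation marker, had 0.59 and did not pass (adjusted p = 0.0691). None of 7 cyclin kinase inhibitor genes was called. Human reads on these conserved genes were not measured. For the luminal epithelial genes, which AU565 cells would express in their human form, none of 18 was called. Erbb2, the mouse HER2 gene, read 86.8, 167 and 198 CPM without and 82.1, 162 and 226 CPM with panobinostat (change 0.00, SE 0.18, adjusted p = 0.997). Krt8, a luminal keratin, had -0.19 (SE 0.11, adjusted p = 0.497).

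Smaller groups held single calls. In each list with a call here and in the next paragraph, 1 call is already a larger share than over all genes tested. That share was 2.19% higher and 1.03% lower. Per1, a clock gene that also answers to glucocorticoids, read 18.6, 24.2 and 28.2 CPM without and 28.5, 35.3 and 40.2 CPM with panobinostat, a change of 0.54 (SE 0.07, adjusted p = 0.000382) with no overlap. Bhlhe40, a repressor within the clock, changed by -0.41 (SE 0.07, adjusted p = 0.00262), and these were the 2 called of 17 clock genes. Tnfsf10, the death ligand TRAIL, rose by 1.11 (SE 0.17, adjusted p = 0.00139) with no overlap. Eng, an endothelial co-receptor of TGF-beta, rose by 0.34 (SE 0.07, adjusted p = 0.00847) and Apln, an endothelial peptide, fell by 0.70 (SE 0.13, adjusted p = 0.00452). Acly, which makes acetyl-CoA from citrate, read 219, 331 and 506 CPM without and 180.0, 198 and 231 CPM with the drug, a change of -0.72 (SE 0.16, adjusted p = 0.0186), the 1 call among 13 fatty acid synthesis genes, whose median was -0.35. Cyp51 was the 1 lower of 17 cholesterol synthesis genes, whose median was -0.24, and lost its call in 6 of the 16 fits that left out 1 library.

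Single or paired lower calls came from the lists of clustered histones (1 of 39), dendritic cells (1 lower and 1 higher of 15), TGF-beta (1 of 18), brown fat (1 of 5), keratinocytes (1 of 7), p53 targets (1 of 16), heat shock (1 of 17), lysosome (2 of 20) and Notch (1 of 13). Higher calls came from platelet genes (1 of 3), the BCL2 family (1 of 17), sodium pump genes (2 of 13), checkpoint and costimulation genes (2 of 13, with 1 lower) and glucocorticoid response genes (1 of 15, with 1 lower). No gene was called in the lists for oxidative phosphorylation (87 tested), ribosomal proteins (76), Wnt (19), hypoxia and glycolysis (19), adipocytes (18), the unfolded protein response (18), complement (17), toll-like receptors (14), autophagy (14), tubulins (14), mural cells (12), EGF receptors and ligands (11), mast cells (7), lymphatic endothelium (6), skeletal muscle (6) or metallothioneins (3). When 1 library was left out, the hypoxia, unfolded protein response, complement and toll-like receptor lists each had 1 call in at least 1 fit, and the counts of the other lists just given moved by at most 1 in each direction.

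Of the 503 called genes, 356 were in none of the 67 lists, and these were picked out after their values were seen. Cxcr4, the receptor for Cxcl12, read 58.3, 69.2 and 81.7 CPM without and 36.3, 42.3 and 48.8 CPM with panobinostat, a change of -0.71 (SE 0.08, adjusted p = 0.000344) with no overlap. Ptgs1, the prostaglandin enzyme COX-1, changed by -0.69 (SE 0.09, adjusted p = 0.00047), again with no overlap. Cd69, an early activation antigen of lymphocytes, rose by 1.56 (SE 0.21, adjusted p = 0.000448), with overlap. Tesc, a calcium-binding protein gene, rose from 0.769, 1.75 and 2.08 CPM to 3.53, 4.27 and 4.98 CPM, a change of 1.46 (SE 0.18, adjusted p = 0.000347). The decreases largest in size were in 2 genes that varied widely within an arm. Slc2a5, a fructose transporter gene, read 0 to 3.84 CPM without and 0 to 0.581 CPM with panobinostat (adjusted p = 0.0342), and its call was lost in 11 of the 16 fits that left out 1 library, with adjusted p up to 0.074. Dmbt1, a mucin-like gene of epithelia, ran from 1.93 to 117 CPM without and from 0.872 to 16.7 CPM with the drug (adjusted p = 0.0342), and its call was lost in 10 of those fits, with adjusted p up to 0.0905. Cpa1, a carboxypeptidase gene, was low but steadier, at 1.77, 2.38 and 3.12 CPM without and 0.357, 0.692 and 1.52 CPM with the drug (change -1.53, SE 0.26, adjusted p = 0.0022).

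**Figure D4:**
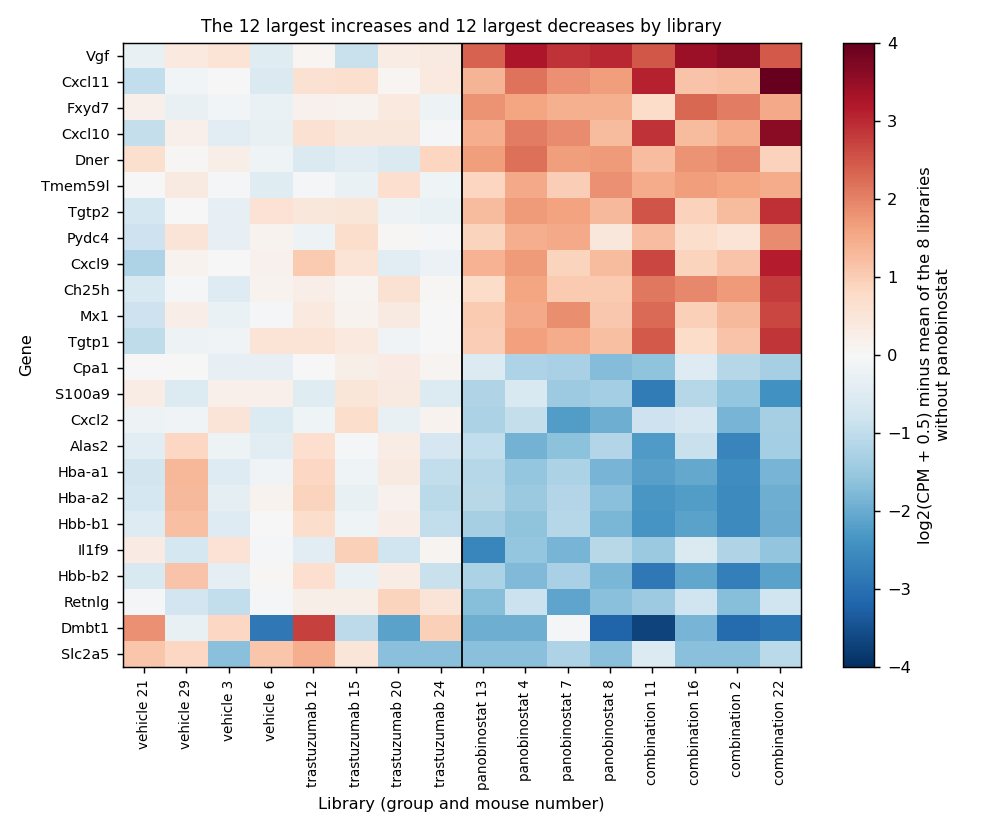
Colour gives log2(CPM + 0.5) of each library minus the mean of the 8 libraries without panobinostat, for the 12 largest increases and 12 largest decreases (rows) in 16 libraries (columns, by group and mouse number, with a line between the arms). Vgf is raised in all 8 panobinostat libraries, the CXCR3 ligands most in combination mice 11 and 22, and Dmbt1 and Slc2a5 vary within each arm.

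The design also allows the panobinostat effect to be read in 2 sets of libraries that share none. Panobinostat against vehicle called 68 of 15610 genes (0.436%), and the combination against trastuzumab called 5 (0.032%). All 68 genes called without trastuzumab changed in the same direction with it, and 65 of them had an unadjusted p under 0.05 there. Over all genes tested, 60.3% had the same direction and 7.04% had the same direction with such a p. Only 2 of the 68 were themselves called with trastuzumab. All 5 genes called with trastuzumab had the same direction and an unadjusted p under 0.05 without it. Across all 15610 genes, which are not independent replicates, the changes of the 2 sets had a Pearson correlation of 0.48. Over all 23354 symbols, with no filter on low counts, it was -0.03. Vgf changed by 3.01 without trastuzumab and by 3.30 with it, Cxcl10 by 2.04 and 2.30, Ifit1 by 1.49 and 1.43, and Hbb-b1 by -1.71 and -2.32.

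**Figure D5:**
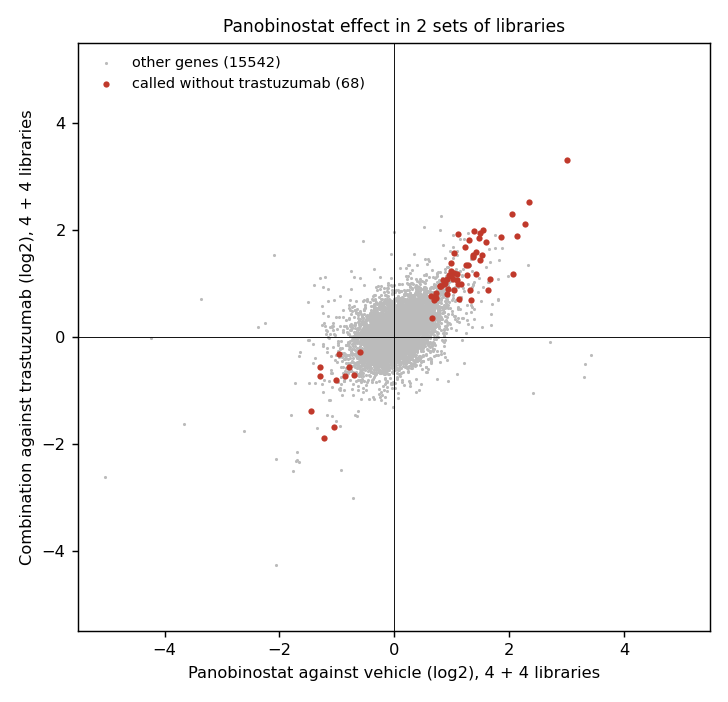
The change of panobinostat against vehicle (x axis, log2, 4 libraries against 4) is plotted against that of the combination against trastuzumab (y axis, log2, the other 4 against 4) for 15610 genes. Red points are the 68 genes called without trastuzumab, and all 68 have the same sign on both axes.

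Whether the effect differed with trastuzumab was tested as an interaction. No gene passed it, 0 of 15610 (0%) in edgeR's quasi-likelihood test, with 279 genes at an unadjusted p under 0.05. DESeq2 also called 0, with 206 at an unadjusted p under 0.05, and limma voom 0, with 274. Among the 95 named genes that were called, 5 had an unadjusted interaction p under 0.05, and none passed adjustment. Smoc2 changed by -1.29 without and -0.73 with trastuzumab, and Fos by -0.96 and -0.32. Ccl17 changed by 0.81 and 2.27, Cd86, a costimulatory ligand, by 0.26 and 0.75, and Smad7, an inhibitor of TGF-beta signalling, by -0.19 and -0.62. A p that misses the threshold does not show that the effects were alike, and for Vgf the interaction was 0.27 with an SE of 0.53.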

How the data were processed

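Raw counts of reads on mouse genes, deposited by the authors as 1 table, covered 16 libraries; per the submitters' processing notes, CASAVA 1.8.2, TopHat2, HTSeq and mm10 were used. How human reads were kept from mouse genes, and the settings and annotation, are not stated there. The library kit keeps no strand information, per the labels. Exons of further named genes also overlap those of another annotated gene, among them Adar (Chrnb2), Col10a1 (Nt5dc1), Junb (Prdx2) and Nrxn2 (Slc22a12). All 8 panobinostat columns hold a dot in place of a value for 1327 symbols, which were left out. No column without panobinostat holds a dot, and what the dot stands for is not stated. Each symbol with values in all 16 libraries has a count in at least 1 panobinostat library. A dot may therefore stand for no count in any of them. Genes with no count under the drug would then have been left out. Every symbol in the table has a count in at least 1 library without panobinostat. A gene counted only with panobinostat is therefore absent from the table, so the symbols in the table are not symmetric between the arms. No 2 replicates agreed within sampling noise (chi-square per degree of freedom 4.06 to 34.2 within groups).

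Counts were fitted with edgeR 4.0.16 (R 4.3.3; TMM, filterByExpr, quasi-likelihood F test) with terms for trastuzumab and panobinostat; the SE is the log2 change over the square root of F. DESeq2 1.42.0 and limma voom 3.58.1 were alternatives, and the code was tested on simulated data. Named genes were the 12 largest increases and 12 largest decreases with the same sign with and without trastuzumab and at least 1 CPM in the higher arm, up to 3 called genes per list, and deacetylases, Cdkn1a, H1f0, Vgf, Cxcl10, Erbb2 and Krt8; some are summarised only, and further list members were chosen after their values were seen. Members and lists were chosen with earlier results of these data known. Coordinates are from GENCODE M21. Fits that left out 1 library and the other settings are in the closing section. Results for some genes are not reported here.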

Additional observations from a re-analysis of the deposited data

Results flagged for a closer look

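In 12 cases, 1 library of a group of 4 stood so far from the other 3 that its gap, divided by the group's range, passed Dixon's critical value at the 95% level. Of 268 groups of list levels 7 passed, and of 96 groups of gene levels 5, where chance alone passes about 1 in 20.

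In vehicle mouse 21 the summed level of basal and keratinocyte genes was 487 CPM, against 97.6 to 118 CPM in the other vehicle libraries. Vehicle mouse 6 had 4390 CPM of CC chemokine genes, against 2420 to 2640 CPM, and 818 CPM of checkpoint and costimulation genes, against 680.0 to 698 CPM. Trastuzumab mouse 12 had 506 CPM of dense-core granule genes, against 247 to 271 CPM, and 723 CPM of p53 target genes, against 629 to 644 CPM. In panobinostat mouse 13 the T cell genes summed to 67.3 CPM, against 12.9 to 17.0 CPM. Combination mouse 22 had 255 CPM of cyclin kinase inhibitor genes, against 198 to 204 CPM.

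Among single genes, vehicle mouse 29 held 262 CPM of Hba-a1, against 63.1 to 95.7 CPM, and 8.76 CPM of Alas2, against 3.29 to 4.01 CPM. Dner was 3.13 CPM in trastuzumab mouse 24, against 0.822 to 0.947 CPM, and 8.71 CPM in panobinostat mouse 4, against 5.89 to 5.90 CPM. Slc2a5 was 0.168 CPM in panobinostat mouse 7 and 0 in the other 3 panobinostat libraries. The causes were not tested.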

How the results depend on the processing

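The 503 calls became 517 with total-count scaling, where 75.6% of calls were higher against 68.0%, and 505 with median-ratio scaling. They became 670 with DESeq2, 476 with limma voom, 456 with no filter, 499 with a filter of 1 CPM in 8 libraries, 471 with 1 mean per group, 468 with no trastuzumab term, 514 with dots read as 0, and 487 with the luminal level as a covariate. With the adipocyte level as a covariate they became 1038, 586 higher and 452 lower, including all 503; the cause was not tested. Leaving out 1 library gave 357 (without trastuzumab mouse 24) to 500 (without trastuzumab mouse 12). Leaving out combination mice 11 and 22, chosen after seeing the data, gave 437, of which 341 were among the 503. With 8 libraries, panobinostat against vehicle gave 68 and the combination against trastuzumab 5. Calls made without trastuzumab that kept their direction with it were 68 of 68, 89 of 89 with total-count scaling, 98 of 98 with no filter and 54 of 54 with limma voom. In reverse they were 5 of 5, 9 of 9 with total-count scaling, 11 of 11 with no filter, and 0 calls with limma voom. The interaction gave 0 calls in every setting run. Of the 95 named called genes, 71 kept their call without each library in turn, and none reversed.

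No paired analysis was possible because no mouse number occurs in more than 1 library. Sequencing batches are not given in the labels used here. Low genes such as Slc2a5 and Retnlg rest on few reads, and differences there are limited by depth. Slc2a5, Retnlg, Il1f9, Cpa1, Cxcl2 and Alas2 passed the filter on low counts only through libraries without panobinostat. Fxyd7, Dner, Tmem59l, Snap25 and Pydc4 passed it only through libraries with the drug. The p-values measure the spread between these mice at 1 time and dose.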
